A study of Cricetiscus sungorus with 41 samples.

Results

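Blood of Djungarian hamsters in torpor (HT) was compared with blood of hamsters that stayed normothermic (NT), with the animals of ZT04 and ZT07 pooled and the time point kept as a term in the fit. The comparison rests on 17 of the 41 samples of the series, 9 HT animals (5 at ZT04, 4 at ZT07) and 8 NT animals (4 at each time point), chosen by their labels. ZT counts the hours after lights on. ZT04 lies at the torpor nadir and ZT07 in arousal, so the shared effect describes deep torpor together with the return from it. The question was which transcripts differed between HT and NT in the same direction at both times. Each of the 17 samples was the blood pellet of 1 wild-type hamster of 32 ± 4 weeks. The 17 animals shared acclimation to short photoperiod, and each had shown spontaneous daily torpor, defined as a body temperature under 32 °C for at least 30 minutes. NT animals were therefore torpor-competent hamsters outside of torpor on the sampling day, not animals unable to enter it. Other groups of the series were HT and NT animals at ZT01 (torpor entry) and ZT16 (after torpor) and 5 hamsters that never entered torpor.

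Daily torpor is a controlled and reversible drop of metabolic rate and body temperature that small mammals use to save energy. Blood is a mixture: young red cells carry most of the RNA, as haemoglobin mRNA, platelets carry RNA of their own, and white cells carry the transcripts of immune defence. In torpid and hibernating mammals the number of circulating white cells is known to fall and to recover on rewarming, so a level in whole blood follows the cells present as well as the RNA in each cell. In these bulk samples fewer cells of a type and less RNA per cell cannot be told apart.

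The libraries held 50153600 to 65077237 counts. Haemoglobin genes took 89.0 ± 1.58% of the counts in HT (SD, n = 9) and 88.9 ± 2.54% in NT (SD, n = 8), a difference of 0.0591 percentage points (exact permutation test within time points, two-sided, p = 0.954). NT ZT04 replicate 2 had the fewest counts outside haemoglobin genes, 3291472. The labelled sexes were 3 males and 6 females in HT and 5 males and 3 females in NT, and the 4 NT animals of ZT04 were labelled male. Counts of UTY, a Y-linked gene, went against the labelled sex of HT ZT07 replicate 1 (male, 8 counts) and HT ZT07 replicate 2 (female, 52 counts). The other 17 libraries labelled male held 15 to 71 and the other 17 labelled female 0 to 8. These are called the UTY-discordant libraries below, and the pooled count and many list counts are also given without them. They are 2 of the 4 HT libraries of ZT07. Results within single time points, and those against ZT01 and ZT16, were not computed without both.

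Of 11110 genes tested, 1854 differed between HT and NT at an adjusted p under 0.05 (16.7%), 967 higher in HT (8.7%) and 887 lower (7.98%). Adjusted p values are from edgeR's quasi-likelihood test with Benjamini-Hochberg adjustment over all genes tested, and "rose" and "fell" are used below for genes past this threshold. Genes that rose included the nuclear envelope gene TMPO, the splicing repressor PTBP2 and the O-GlcNAc hydrolase OGA. Genes that fell included the dynein light chain DYNLL1, the Hsp90 co-chaperone FKBP4, the leukocyte actin bundler LCP1 and the receptor TLR8. Most changes were moderate: the median fold of the called genes was 1.56, and 353 genes changed at least 2-fold (146 higher, 207 lower). At an unadjusted p under 0.05 there were 3342 genes (30.1%). In 269 genes every HT library lay on one side of every NT library (2.42% of the genes tested), 183 above (1.65%) and 86 below (0.774%). With the UTY-discordant libraries left out the count was 1039, of which 1017 were among the 1854. It was 984 without NT ZT04 replicate 2 as well. With the labelled sex as a further term it was 1483, and 410 with that term and without the UTY-discordant libraries. It was 214 with library totals in place of scaling factors and 7 in the libraries labelled male (3 HT, 5 NT), which include the UTY-discordant HT ZT07 replicate 1.

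The share of genes called depended on the level. CPM here stands for TMM-scaled CPM, with haemoglobin counts included, so 1 CPM corresponds to a larger share of the RNA outside haemoglobin. Of 3403 genes with a mean under 1 CPM 9.87% were called, of 6162 genes between 1 and 10 CPM 20.4%, of 1137 genes between 10 and 30 CPM 18.6% and of 408 genes at 30 CPM or more 12%. Among the last, 21 rose and 28 fell.

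TMPO, which encodes the lamina-associated polypeptide 2 of the inner nuclear membrane, was the gene with the lowest p among those that rose. Its level ran from 16.2 over a median of 17.3 to 23.6 CPM in HT and from 6.14 over 6.87 to 7.73 CPM in NT. The 9 HT libraries lay above the 8 NT libraries without overlap. On the log2 scale the difference was 1.43 ± 0.11 (SE, adjusted p = 6.42e-08). PTBP2, a repressor of splicing that binds polypyrimidine tracts, had 13.4, 18.8 and 24.9 CPM in HT and 3.003, 5.15 and 7.59 CPM in NT as lowest, median and highest values, and a log2 fold change of 1.78 ± 0.16 (adjusted p = 1.4e-06, SE as above). OGA, which hydrolyses the O-GlcNAc sugar off nuclear and cytosolic proteins, ran from 30.8 to 57.7 CPM in HT (median 37.8) and from 11.0 to 17.4 CPM in NT (median 14.8). Its log2 fold change was 1.45 ± 0.13 (SE, adjusted p = 1.44e-06). For OGT, which adds the same sugar, the log2 fold change was −0.14 (adjusted p = 0.57). TMPO and PTBP2 passed the test in each of 35 alternative settings, and OGA in 34 of them.

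The other genes with the lowest p among those that rose belonged to different functions. ANKLE2, a LEM-domain protein needed to rebuild the nuclear envelope after mitosis, had a median of 21.7 CPM in HT and 8.94 CPM in NT (log2 1.36 ± 0.13). FBXO40, a substrate receptor of a ubiquitin ligase known from skeletal muscle, had 2.74 and 0.746 CPM (log2 1.95 ± 0.19). FBXO7, another F-box protein, had 11.6 and 5.34 CPM (log2 1.21 ± 0.12), and FBXL12 had 5.83 and 2.57 CPM (log2 1.10 ± 0.13). Medians of RAB40C, a Rab-like GTPase of a ubiquitin ligase, were 8.61 and 4.52 CPM. Those of USP16, a deubiquitinase of histone H2A, were 9.39 and 4.89 CPM. SNRNP48, a protein of the minor spliceosome, had medians of 7.36 and 3.59 CPM, RBM33 had 29.9 and 15 CPM, and ARMCX5 had 1.92 and 0.561 CPM. In each of these 9 genes every HT library lay above every NT library, as in 1.65% of all genes tested. They were chosen by their low p in the same libraries, which favours such separation.

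The largest fold among genes with a mean of at least 1 CPM was that of PDE1B, a calcium- and calmodulin-dependent phosphodiesterase of cyclic nucleotides. It ran from 0.961 to 4.70 CPM in HT and from 0.126 to 0.872 CPM in NT (log2 2.43 ± 0.34, adjusted p = 0.000102). LTF, the lactoferrin of neutrophil granules, had a fold of 4.99 but overlapping groups, 0.482 to 12.6 CPM in HT and 0.308 to 1.55 CPM in NT, and its highest HT value was that of a single library at ZT04. CPB2, the carboxypeptidase that slows fibrinolysis and is made mainly in the liver, lay below 1 CPM on average. Its levels were 0.781, 1.245 and 1.98 CPM in HT and 0, 0.0824 and 0.144 CPM in NT (log2 4.21 ± 0.37, adjusted p = 1.07e-06), again without overlap, and it passed the test in each of 34 alternative settings.

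DYNLL1, a light chain of cytoplasmic dynein and a hub protein of other complexes, was the gene with the lowest p among those that fell. Its levels were 1.23, 1.66 and 2.46 CPM in HT and 5.35, 6.32 and 8.56 CPM in NT as lowest, median and highest values. The groups did not overlap, and the log2 fold change was −1.86 ± 0.14 (SE, adjusted p = 6.42e-08). FKBP4 had a median of 2.26 CPM in HT and 6.09 CPM in NT (log2 −1.47 ± 0.15, adjusted p = 3.83e-06). LCP1, the plastin of white cells, ran from 18.3 to 35.6 CPM in HT and from 43.6 to 51.2 CPM in NT (log2 −0.94 ± 0.12, adjusted p = 4.31e-05). Its 4 HT libraries of ZT07, at 18.3 to 22.7 CPM, all lay below its 5 HT libraries of ZT04, at 26.2 to 35.6 CPM.

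Further genes of this group were WBP1L (median 2.16 CPM in HT, 4.82 CPM in NT), the splicing factor CRNKL1 (2.46 and 5.00 CPM), RSPRY1 (1.81 and 3.13 CPM), the lysophosphatidic acid receptor LPAR6 (2.49 and 5.57 CPM), the ubiquitin chain elongation factor UBE4A (4.52 and 8.48 CPM) and MPLKIP (0.831 and 2.39 CPM). MAVS, the mitochondrial adaptor of the cytosolic RNA sensors, had medians of 1.20 and 2.92 CPM (log2 −1.10 ± 0.15). None of these overlapped between HT and NT. Every HT library lay below every NT library in 0.774% of all genes tested. The genes were chosen by their low p in the same libraries, which favours such separation. FAM160A2 overlapped, with 0.809 to 1.78 CPM in HT and 1.74 to 3.57 CPM in NT. Among genes of at least 1 CPM the largest falls were those of TLR8, DYNLL1, MPLKIP, the chemokine gene CXCL9 (log2 −1.54 ± 0.43) and WIPI1 (log2 −1.53 ± 0.23). CXCL9 overlapped, with 0.107 to 1.52 CPM in HT and 0.329 to 4.15 CPM in NT, and passed in 28 of 34 alternative settings. WIPI1 overlapped too, with 1.10 to 3.54 CPM in HT and 2.65 to 9.23 CPM in NT.

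**Figure D1:**
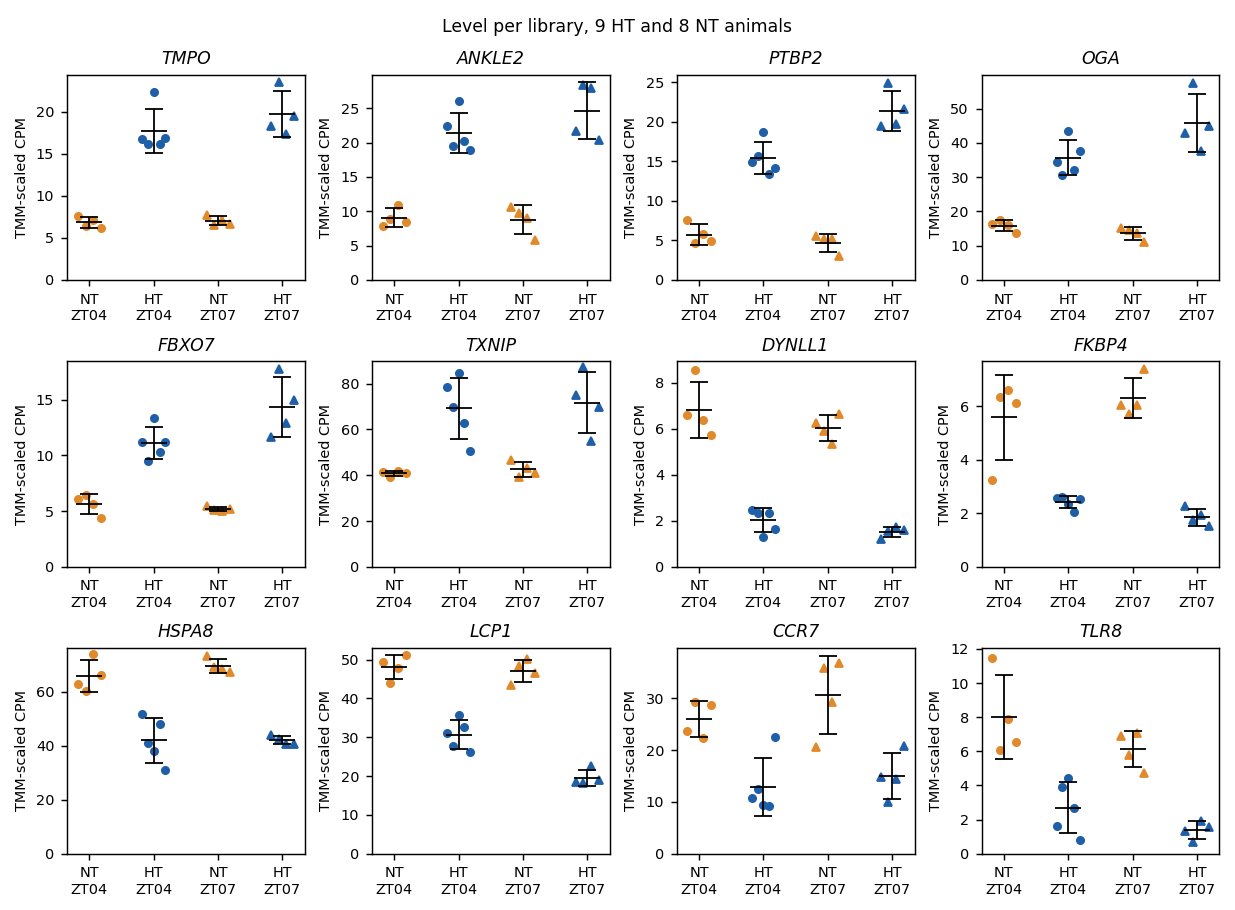
Level of 12 genes in each library, in TMM-scaled CPM on a linear axis from 0, for NT (orange) and HT (blue) at ZT04 (circles) and ZT07 (triangles); horizontal and vertical lines give the mean and the SD of each group (n = 4 or 5). TMPO sits between 16.2 and 23.6 CPM in the HT libraries and between 6.14 and 7.73 CPM in the NT libraries, and DYNLL1 between 1.23 and 2.46 CPM and between 5.35 and 8.56 CPM.

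Genes of 42 lists were counted to describe the change by function. The lists cover blood cell types, immune receptors, the clock, RNA processing, protein quality control and metabolism. The counts below are to be read against the 8.7% of all genes that rose and the 7.98% that fell, and the median log2 fold change of all genes tested was −0.02.

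**Figure D2:**
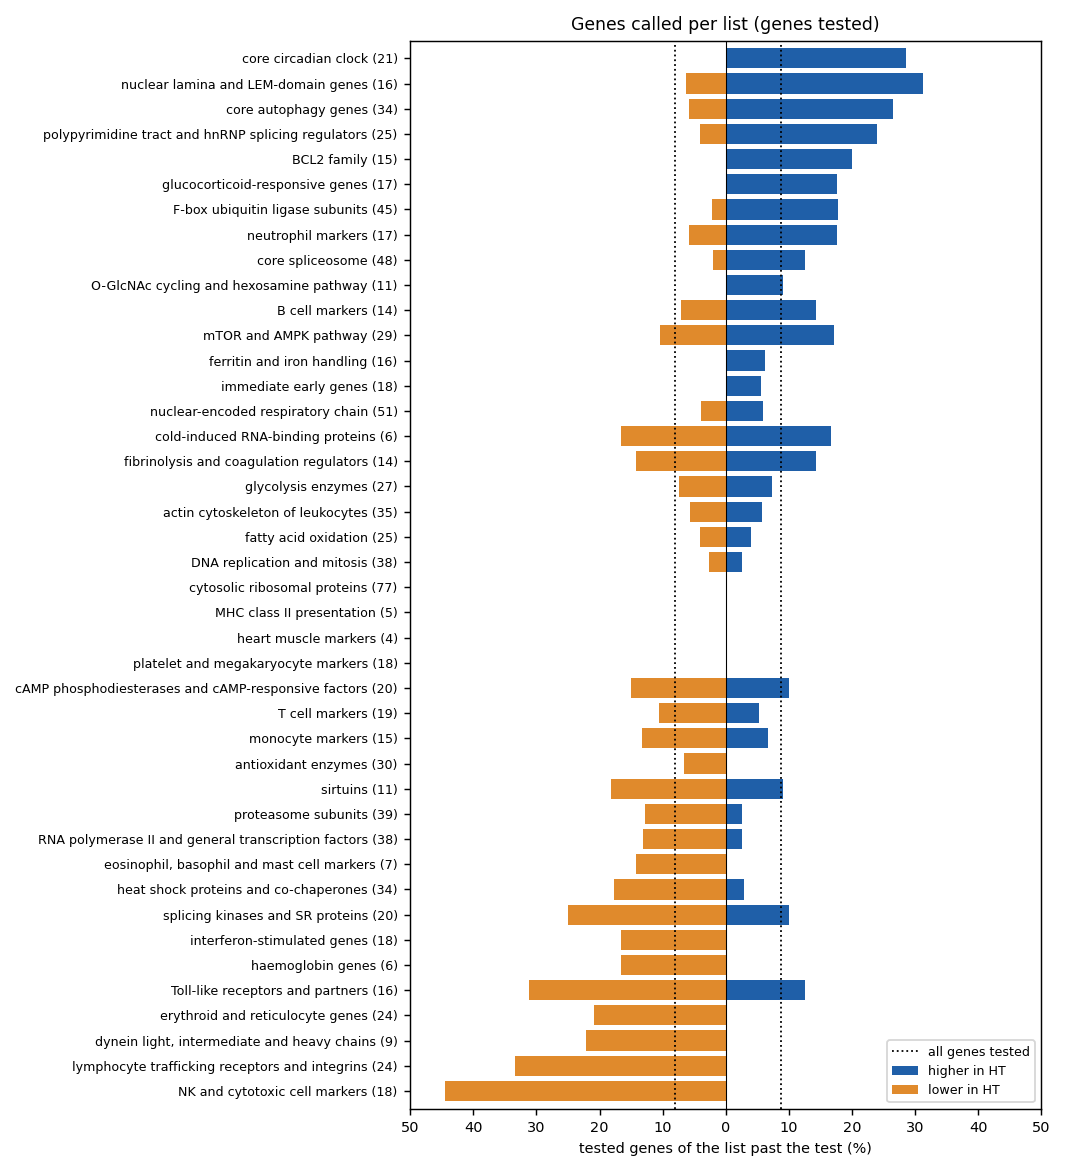
Share of the tested genes of each list that passed the test, higher in HT (blue, to the right) or lower in HT (orange, to the left), in percent; the number of genes tested stands after the name of the list and the dotted lines mark 8.7% higher and 7.98% lower over all genes tested. NK and cytotoxic cell markers have the longest bar to the left (8 of 18), and no genes of the ribosomal protein list passed in either direction.

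Among cytotoxic and trafficking genes, those that passed the test were lower in HT. Of 18 NK and cytotoxic cell markers tested 8 fell and none rose (median log2 −0.68). They were the NK receptors KLRD1, CD160 and NCR1, the lineage factor TBX21, and PRF1, GZMA, GZMB and GZMK, which encode the pore-forming protein and proteases of cytotoxic granules. KLRD1 had 1.03, 1.47 and 2.46 CPM in HT and 1.57, 3.94 and 6.40 CPM in NT (log2 −1.40 ± 0.21, adjusted p = 0.000212). PRF1 had medians of 12 and 29.5 CPM (log2 −0.86 ± 0.25, adjusted p = 0.0229). KLRB1 had a log2 fold change of −0.06 (adjusted p = 0.907). The number that fell was 4 of 18 without the UTY-discordant libraries and 9 of 18 with the labelled sex as a term.

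Of 24 receptors and integrins of lymphocyte trafficking 8 fell and none rose (median log2 −0.26). CCR7, which guides lymphocytes into lymph nodes, had 9.25, 12.5 and 22.6 CPM in HT and 20.7, 29.0 and 36.8 CPM in NT, with HT libraries at 20.8 and 22.6 CPM inside the NT range (log2 −1.02 ± 0.18, adjusted p = 0.000893). GPR183, the oxysterol receptor that positions B cells and T cells in lymphoid tissue, ran from 2.60 to 4.04 CPM in HT and from 4.31 to 6.58 CPM in NT (log2 −0.75 ± 0.12). CXCR3, CCR4, CCR6, CXCR5 and CXCR6 were among the others that fell, and CXCR3 did so without overlap at low levels (at most 0.271 CPM in HT, at least 0.495 CPM in NT). S1PR1, which drives exit from lymph nodes, had a log2 fold change of 0.07 (adjusted p = 0.799). Of the 24, 7 fell without the UTY-discordant libraries.

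Of 16 Toll-like receptors and partners 5 fell and 2 rose (median log2 −0.28). The 5 were receptors, TLR2, TLR3, TLR6, TLR7 and TLR8, and the 2 were signalling proteins downstream of them, TRAF6 (log2 0.84 ± 0.16) and IRAK1 (log2 0.52 ± 0.13). TLR8, a sensor of single-stranded RNA, had 0.668, 1.62 and 4.44 CPM in HT and 4.75, 6.71 and 11.5 CPM in NT (log2 −1.85 ± 0.27, adjusted p = 0.000146). TLR2, a sensor of bacterial lipoproteins, ran from 0.233 to 1.41 CPM in HT and from 1.58 to 2.35 CPM in NT (log2 −1.49 ± 0.28). Both were without overlap. TLR4 had a log2 fold change of −0.66 ± 0.32 (adjusted p = 0.163) and the adaptor MYD88 −0.24 (adjusted p = 0.343). Of 18 interferon-stimulated genes 3 fell and none rose: IFIT1, the transcription factor STAT2, and IFIH1, the RNA sensor upstream of MAVS. Only 1 of these 18 fell without the UTY-discordant libraries.

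Markers of other white cells did not move in a single direction. Of 19 T cell markers CD5 rose (median 15.3 CPM in HT, 9.55 CPM in NT) and THEMIS was among those that fell. Of 14 B cell markers the transcription factors PAX5 and EBF1 rose and the adaptor BANK1 fell (log2 −1.03 ± 0.20). Of 15 monocyte markers CD68 rose and the chemokine receptors CX3CR1 and CCR2 fell. The neutrophil list held 17 tested genes, of which the granule genes LTF, MMP8 and CAMP rose and the receptor FPR1 fell. FPR1 had at most 0.279 CPM in HT and MMP8 a median of 0.174 CPM in HT, so both rested on few counts. The number of neutrophil markers that rose was 2 without the UTY-discordant libraries, 6 without HT ZT04 replicate 5 and 6 with the replicate number as a block. Of 7 eosinophil, basophil and mast cell markers 1, ALOX15, fell (adjusted p = 0.0485). None of 5 genes of MHC class II presentation passed. In the fit without the UTY-discordant libraries the B cell list held 1 gene past the test (BANK1), and the monocyte and the eosinophil, basophil and mast cell lists none. For 10 HLA class II genes on that list no counts were assigned to the human symbol, which says nothing about the hamster genes.

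The summed level of the 18 NK and cytotoxic cell markers ran from 60.6 to 122 CPM in HT (median 69.8) and from 55.6 to 173 CPM in NT (median 132). The 19 T cell markers had sums with medians of 195 CPM in HT and 190 CPM in NT, the 14 B cell markers 182 and 171 CPM, the 15 monocyte markers 237 and 259 CPM and the 17 neutrophil markers 36.6 and 40.5 CPM. The sums overlapped between HT and NT in each list, and their part in the result was not tested. Heart muscle markers were measured because blood was drawn by heart puncture. None of 4 tested heart markers passed, and NPPA, NPPB, MYL7 and PLN had no count. The sum of the 4 tested markers was 30.5 and 19.5 CPM in HT ZT04 replicates 4 and 5 and 12.8 CPM in HT ZT07 replicate 4. It was 9.58 CPM at most in NT, and the other HT libraries lay below that value. None of 6 skeletal muscle markers passed either (median log2 0.77, 2 of them at an unadjusted p under 0.05). Their sum was 15.7 CPM in HT ZT07 replicate 1, 2.66 to 4.42 CPM in the other HT libraries and 2.08 to 3.76 CPM in NT. FBXO40, the muscle-linked gene described above, had 2.73 CPM in HT ZT07 replicate 1 and 2.14 to 3.01 CPM in the other HT libraries, and it rose without the UTY-discordant libraries too (log2 1.92, adjusted p = 5.22e-05). The part of muscle RNA in its level was not tested.

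**Figure D3:**
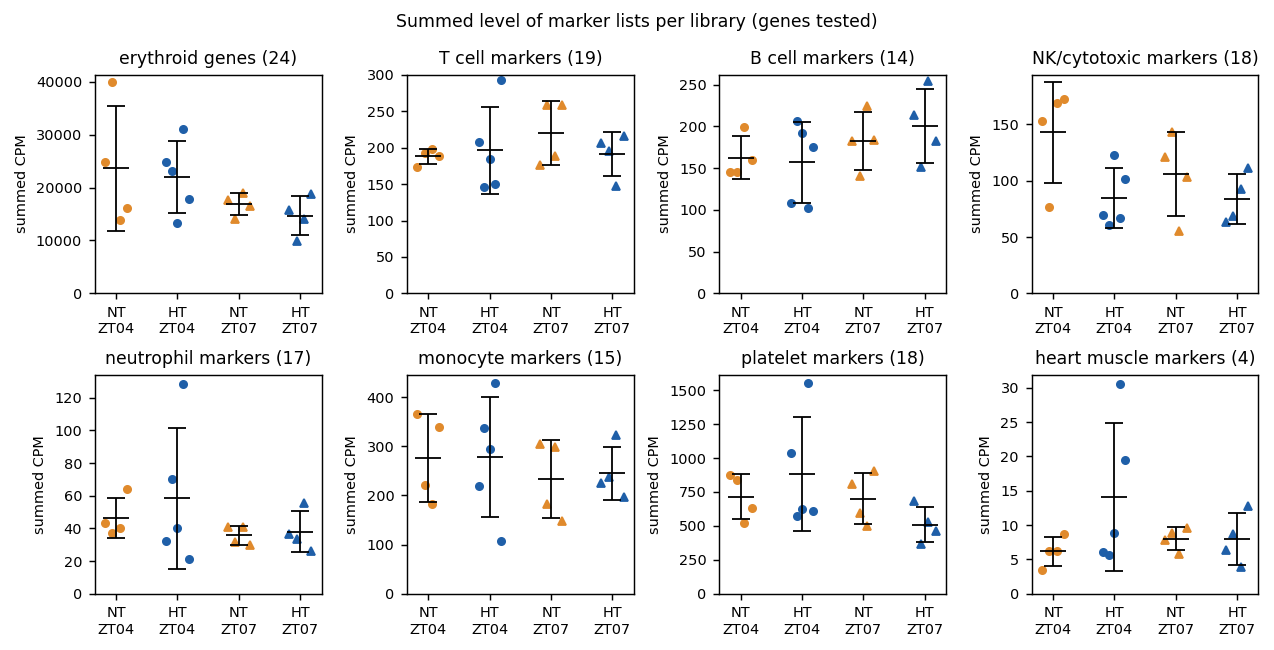
Summed TMM-scaled CPM of the tested genes of 8 marker lists in each library, on linear axes from 0, with the number of genes after the name of the list; NT is orange, HT blue, circles are ZT04, triangles ZT07, and lines give the mean and the SD of each group (n = 4 or 5). The sums overlap between HT and NT in every list, NK and cytotoxic markers being at a median of 69.8 CPM in HT and 132 CPM in NT.

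Of 21 tested genes of the core circadian clock 6 rose and none fell (median log2 0.49). PER1, a repressor of the clock that also responds to glucocorticoids, had 4.11, 6.38 and 13.2 CPM in HT and 2.48, 3.55 and 3.86 CPM in NT (log2 1.05 ± 0.15, adjusted p = 0.000158). BHLHE40, a repressor of clock output, ran from 4.02 to 12 CPM in HT and from 1.85 to 3.82 CPM in NT (log2 1.29 ± 0.20). Neither overlapped. NR1D1 and NR1D2, the REV-ERB receptors that repress the activator arm, rose, as did CLOCK of that arm. Among the clock genes that did not pass, ARNTL had a log2 fold change of 0.18, CRY1 −0.04 and PER2 −0.48. The number that rose was 4 of 21 without the UTY-discordant libraries, and 3 without NT ZT04 replicate 2 as well.

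Of 17 glucocorticoid-responsive genes 3 rose and none fell, PER1 among them. TXNIP, an inhibitor of thioredoxin and of glucose uptake, ran from 50.7 to 87.3 CPM in HT and from 39.1 to 46.6 CPM in NT, without overlap (log2 0.76 ± 0.12, adjusted p = 0.000238). The third was NFKBIA, the inhibitor of NF-kappaB (log2 0.61 ± 0.13). Other genes of this list did not pass: FKBP5 had a log2 fold change of −0.64 (adjusted p = 0.0852) and TSC22D3 −0.28 (adjusted p = 0.312). Of 18 immediate early genes 1, IER2, rose (log2 0.43 ± 0.13), and none did without the UTY-discordant libraries. Of 20 cAMP phosphodiesterases and cAMP-responsive factors PDE4B and PDE7A rose, and the kinase subunit PRKACA, the coactivator CRTC1 and the transcription factor CREM fell. CREM did not pass without the UTY-discordant libraries, and PDE7A did not pass with the labelled sex as a term. PDE4B ran from 12.8 to 28.0 CPM in HT and from 9.18 to 12.5 CPM in NT (log2 0.85 ± 0.13).

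Genes of RNA processing changed in both directions. Of 25 polypyrimidine tract and hnRNP splicing regulators 6 rose, PTBP2, HNRNPR, TIAL1, HNRNPH3, HNRNPL and HNRNPH1, and 1, HNRNPF, fell. Without the UTY-discordant libraries 4 of the 25 rose and none fell, and HNRNPF also lost its call with RLE scaling, with haemoglobin genes left out and with the labelled sex as a term. PTBP1, the close relative of PTBP2, had a log2 fold change of 0.17 (adjusted p = 0.256). Of 48 core spliceosome genes 6 rose, SNRPA1, SF3B1, DHX15, DHX38, PLRG1 and SF3A2, and CRNKL1 fell, together 14.6% against 16.7% of all genes. SF3B1, which recognises the branch point, ran from 76.4 to 108 CPM in HT and from 41.4 to 62.5 CPM in NT (log2 0.71 ± 0.11). Of 20 splicing kinases and SR proteins 5 fell, the kinases CLK1 and CLK4 and the SR proteins SRSF2, SRSF5 and SRSF7, and 2 rose, SRSF4 and SRSF10. CLK1 had medians of 13 CPM in HT and 23.1 CPM in NT (log2 −0.62 ± 0.14, adjusted p = 0.00461). Of the 6 cold-induced RNA-binding proteins HNRNPDL rose, from a range of 22.1 to 32.4 CPM in NT to 37.2 to 47.3 CPM in HT, and SRSF5 fell. The best known of them did not pass: CIRBP had a log2 fold change of 0.34 ± 0.14 (adjusted p = 0.0913) and RBM3 0.29 ± 0.14 (adjusted p = 0.165). Of 38 RNA polymerase II subunits and general transcription factors 5 fell, among them the second largest polymerase subunit POLR2B (log2 −0.71 ± 0.12), and TAF8 rose. Leaving out the UTY-discordant libraries, 3 of these 38 fell, and of the 20 splicing kinases and SR proteins 3 fell and 2 rose. Differences between these lists were not tested.

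In protein quality control, most chaperone genes that passed the test fell and most autophagy genes that passed rose. Of 34 heat shock proteins and co-chaperones 6 fell, FKBP4, HSPA8, STIP1, HSPA4, DNAJB4 and DNAJA1, and DNAJC7 rose. HSPA8, the constitutive Hsp70, ran from 30.9 to 51.9 CPM in HT and from 60.2 to 74.0 CPM in NT, without overlap (log2 −0.69 ± 0.11, adjusted p = 0.000242). The Hsp90 genes themselves did not pass: HSP90AA1 and HSP90AB1 both had a log2 fold change of −0.24 (adjusted p = 0.22 and 0.16). Without the UTY-discordant libraries 4 of the 34 fell and none rose.

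Of 34 core autophagy genes 9 rose, ATG3, ATG2A, ATG2B, ATG12, ATG13, ATG14, ATG16L1, ATG101 and ULK2, and 2 fell, WIPI1 and PIK3R4. ATG3, which conjugates the ubiquitin-like LC3 proteins to lipid, had medians of 4.65 CPM in HT and 1.97 CPM in NT (log2 1.12 ± 0.15, adjusted p = 8.19e-05). ATG2A, a lipid transfer protein of the growing membrane, ran from 13.7 to 19.0 CPM in HT and from 8.87 to 12.5 CPM in NT. Of the same 34, 7 rose and 2 fell without the UTY-discordant libraries. Of 45 F-box subunits of ubiquitin ligases 8 rose and 1, FBXO30, fell. Of 39 proteasome subunits 5 fell, led by PSMD7 (log2 −0.59 ± 0.12), and PSMC2 rose. This number was 3 of 39 without the UTY-discordant libraries. Of 15 BCL2 family genes BCL2L11 and MCL1, which promote and block apoptosis respectively, and BCL2L13, a mitophagy receptor, rose, and none fell. MCL1 did not pass without the UTY-discordant libraries (adjusted p = 0.0786).

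In nutrient signalling and metabolism single genes passed the test, and most lists were called at a lower share than all genes (16.7%). The share was 14.8% for glycolysis, 8% for fatty acid oxidation and 9.8% for the respiratory chain. It was 6.67% for antioxidant genes, 6.25% for iron handling and 9.09% for O-GlcNAc and hexosamine genes. For mTOR and AMPK genes it was 27.6%, and for sirtuins and partners 27.3%. Of 29 genes of the mTOR and AMPK pathway 5 rose, the AMPK catalytic subunit PRKAA2, the mTORC2 subunit RICTOR, the activator RHEB, and PRR5 and AKT1S1. MLST8, a subunit of both mTOR complexes, the translation repressor EIF4EBP1 and the stress sensor SESN2 fell. MLST8 ran from 0.949 to 1.64 CPM in HT and from 2.08 to 2.43 CPM in NT (log2 −0.88 ± 0.12, adjusted p = 0.000102). MTOR had a log2 fold change of −0.11 (adjusted p = 0.666). Of 27 glycolysis genes PFKFB1 and SLC2A3 rose and the lactate genes SLC16A1 and LDHB fell. Of 25 genes of fatty acid oxidation ACSL4 rose (log2 0.94 ± 0.18) and UCP2 fell. UCP2 did not pass without the UTY-discordant libraries (adjusted p = 0.177) or with the labelled sex as a term (0.0534). Of 51 nuclear-encoded respiratory chain genes 3 rose, NDUFS1, NDUFB9 and NDUFS3, and 2 fell, NDUFB5 and COX6B1. Of 30 antioxidant genes PRDX3 and GSR fell. Of 16 genes of ferritin and iron handling the mitochondrial iron carrier SLC25A28 rose. Among 11 sirtuins and partners SIRT3 rose and NMNAT1 and SIRT1 fell. SIRT1 had an adjusted p of 0.0497, and SIRT3 and NMNAT1 lay under 0.5 CPM in every library. When the UTY-discordant libraries were left out, none of the glycolysis genes and 1 of the respiratory chain genes rose, 1 antioxidant gene fell and no sirtuin or partner passed. Without NT ZT04 replicate 2 as well, 2 of the 29 mTOR and AMPK genes rose. OGA was the only one of 11 O-GlcNAc and hexosamine genes to pass.

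Among structural genes, 5 of 16 nuclear lamina and LEM-domain genes rose, TMPO, ANKLE2, SUN1, SUN2 and EMD, and LBR, the lamin B receptor, fell (log2 −0.46 ± 0.11). The lamins did not pass: LMNA had a log2 fold change of 0.03 and LMNB1 −0.13. Of 9 dynein chains DYNLL1 and DYNC1I2 fell, and DYNLL2, which encodes a protein nearly identical to DYNLL1, had −0.29 (adjusted p = 0.503), so reads could be split between them. Of 35 leukocyte actin genes ARPC4 and WASF2 rose and DOCK8 and RAC2 fell. Of 38 genes of DNA replication and mitosis CDK2 rose and PCNA fell. Of 14 fibrinolysis and coagulation regulators CPB2 and SERPINC1 rose and F2R and S100A10 fell. No actin or coagulation gene fell without the UTY-discordant libraries, while 1 of the dynein chains fell and CPB2 rose in that fit too. SERPINC1 did not pass in that fit or with the labelled sex as a term.

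Red cell genes were lower where they passed. Of 24 erythroid and reticulocyte genes 5 fell and none rose (median log2 −0.45), among them the anion exchanger SLC4A1, the blood group gene KEL, XPO7 and CA2. SLC4A1 ran from 13.6 to 50.5 CPM in HT and from 38.0 to 109 CPM in NT (log2 −1.07 ± 0.23, adjusted p = 0.00333). The number was again 5 without the UTY-discordant libraries, and it was 2 without NT ZT04 replicate 2 as well. That library had the highest haemoglobin share (93.8%) and the lowest scaling factor (0.37). Of 6 tested haemoglobin genes HBE1 fell, at 0.524 to 5.70 CPM in HT and 1.99 to 15.2 CPM in NT, and did not pass without the UTY-discordant libraries. HBA2 and HBD, the symbols that hold most haemoglobin counts, had log2 fold changes of −0.29 and −0.15 (adjusted p = 0.63 and 0.83). Near-identical haemoglobin copies share reads, so single symbols are uncertain. Platelet and megakaryocyte markers (18 tested) and cytosolic ribosomal proteins (77 tested) held no gene past the test, with median log2 fold changes of 0.03 and 0.02.

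The effect was then taken apart by time point. In the fit of the 4 groups 69.1% of all 11110 genes had the same sign at ZT04 and ZT07. All 1854 called genes did, which follows largely from their choice by the pooled effect of the same libraries. In that fit 343 genes passed within ZT04 (3.09%) and 917 within ZT07 (8.25%), and 198 of the 1854 passed in both. Without single libraries these counts ran from 132 to 355 at ZT04 and from 347 (without HT ZT07 replicate 2) to 1060 at ZT07, and with the labelled sex as a term they were 44 and 821. The absolute log2 fold change of the 1854 had a median of 0.59 at ZT04 and 0.71 at ZT07, and it was larger at ZT07 in 1186 of them. A test of the difference between the time points called 0 of 11110 genes in edgeR (lowest adjusted p = 0.49; 662 genes, 5.96%, at an unadjusted p under 0.05) and 3 in DESeq2. A larger effect at ZT07 was thus not shown for a single gene by edgeR. For PTBP2 the log2 fold changes were 1.42 at ZT04 and 2.18 at ZT07, for LCP1 −0.65 and −1.27, and for TMPO 1.37 and 1.49.

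Because no animal was sampled at both times, each time point was also fitted on its own libraries. ZT04 alone called 47 of 10505 genes (0.447%) and ZT07 alone 1120 of 10787 (10.4%). All 47 genes called at ZT04 had the same sign at ZT07, and 41 of them were called there too, where 10.4% of all genes were. At an unadjusted p under 0.05 it was 43 of them, against 28.0% of all genes. Their median log2 fold change in the direction of ZT04 was 1.32 at ZT04 and 1.29 at ZT07. Of the 1104 genes called at ZT07 and tested at both times, 1045 had the same sign at ZT04. Their median log2 fold change was 0.84 at ZT07 and 0.46 at ZT04 in the same direction, and 509 of them had an unadjusted p under 0.05 at ZT04, where 15.2% of all genes did. These genes were chosen by their ZT07 effect, which favours a larger median there, so the medians do not show a larger effect at ZT07. Over the 10431 genes tested at both times 69.7% had the same sign. Across these genes, which are not independent replicates, Pearson's r between the log2 fold changes was 0.56 and Spearman's rho 0.53.

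**Figure D4:**
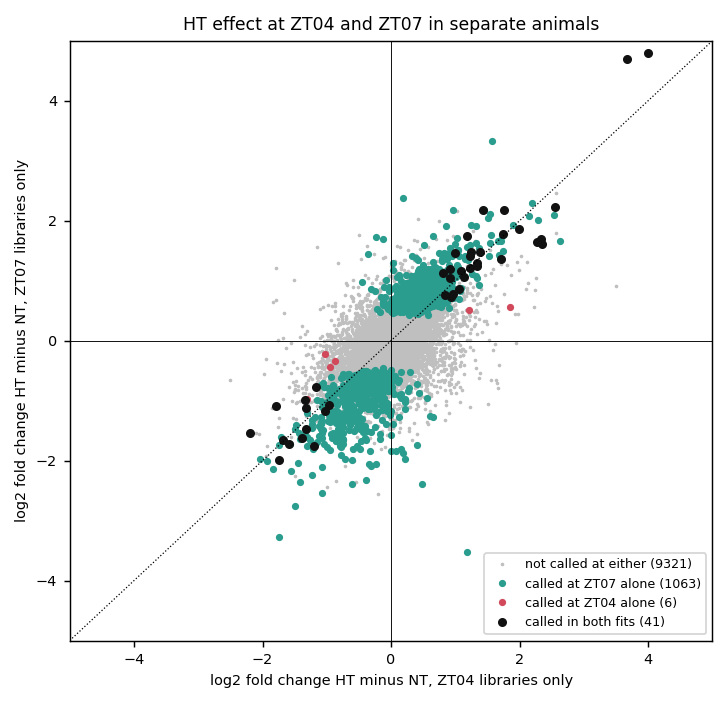
Log2 fold change of HT against NT in the libraries of ZT04 alone (horizontal axis) and of ZT07 alone (vertical axis) for 10431 genes, on linear log2 axes; grey points were called at neither time, green at ZT07 (1063), red at ZT04 (6) and black at both (41), and the dotted line marks equal change. The 41 black points lie in the lower left and upper right, with the same sign at both times.

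The 1854 genes were finally followed at ZT01 and ZT16, in a fit of all 36 HT and NT libraries. At ZT01, during entry, edgeR called 0 of 11471 genes (972 at an unadjusted p under 0.05), and 1512 of the 1854 (81.6%) had the sign of the pooled effect, against 64.1% of all 11110 genes. Their median log2 fold change in that direction was 0.19 at ZT01, against 0.65 at ZT04 and ZT07. The genes were chosen by their effect in the same ZT04 and ZT07 libraries, which favours larger values there. A smaller median at any other time was therefore likely from this choice alone. One library of ZT01, HT replicate 1, stood apart from the other 4 HT libraries of that time. It had 30.1 CPM of LCP1 (the others 46.8 to 51.1 CPM), 2.24 CPM of DYNLL1 (3.22 to 5.53 CPM) and 13.6 CPM of PTBP2 (6.93 to 9.25 CPM). Without it, in a fit added after its values were seen, 1388 of the 1854 (74.9%) had the sign of the pooled effect, against 61.4% of all genes, and the median was 0.15. At ZT16, after torpor, edgeR called 0 genes (552 unadjusted), 998 of the 1854 (53.8%) had the same sign, against 52.9% of all genes, and the median was 0.02. HT animals of ZT16 were all labelled female and NT animals all male, so sex and state cannot be told apart there.

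A test of the mean effect at ZT04 and ZT07 minus the mean effect at ZT01 and ZT16 called 333 of 11471 genes (2.9%), of which 325 were among the 1854. Both use the same ZT04 and ZT07 animals. Against ZT01 alone 25 genes passed (0.218%) and against ZT16 alone 248 (2.16%). Without HT ZT01 replicate 1 the test against ZT01 and ZT16 called 410 genes and that against ZT01 alone 82. OGA differed from ZT01 and ZT16 by 1.24 ± 0.15 on the log2 scale (adjusted p = 1.59e-05), PTBP2 by 1.54 ± 0.20 (2.02e-05), TMPO by 1.09 ± 0.15 (9.09e-05) and LCP1 by −0.96 ± 0.14 (0.000182). On a common scale of 41 libraries, TMPO had medians of 6.95 CPM in NT and 10.2 CPM in HT at ZT01, and of 7.06 and 7.05 CPM at ZT16, with 6.76 CPM in the 5 never-torpor controls. The HT libraries of ZT01 ran from 9.16 to 16.3 CPM and those of NT from 5.80 to 8.28 CPM, so each HT library lay above each NT library, though the gene did not pass the test (log2 0.74 ± 0.14, adjusted p = 0.0555, and 0.59 ± 0.13 without HT ZT01 replicate 1, adjusted p = 0.338). OGA had 19.5 and 21.1 CPM at ZT01 and 15.8 and 17.7 CPM at ZT16, with 15.7 CPM in the never-torpor controls, and its groups overlapped at ZT01. LCP1 had medians of 48.7 CPM in NT and 48.6 CPM in HT at ZT01, 49.2 and 52.0 CPM at ZT16, and 49.4 CPM in the never-torpor controls, near the NT medians of 49.1 CPM at ZT04 and 48.1 CPM at ZT07.

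**Figure D5:**
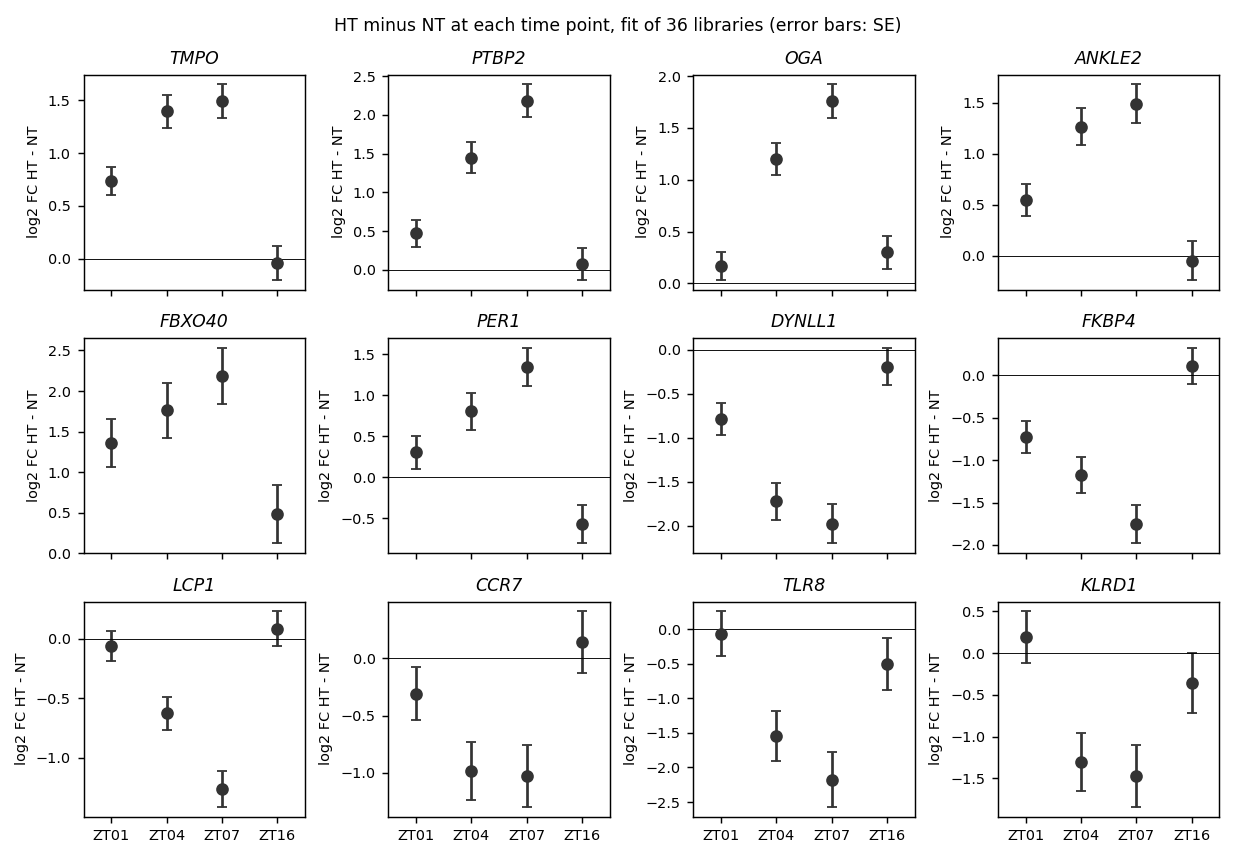
Log2 fold change of HT against NT at each of 4 time points for 12 genes, in the fit of 36 libraries; points are estimates, error bars are the SE, and the horizontal line marks no change. TMPO, PTBP2, OGA and LCP1 pass the test of the mean effect at ZT04 and ZT07 minus the mean effect at ZT01 and ZT16. FBXO40, whose adjusted p for that difference was 0.0775, does not pass it.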

How the data were processed

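RNA of blood pellets was isolated and sequenced in pairs of reads with random-primed cDNA on an Illumina instrument. After trimming, the authors built a de novo assembly from the reads of all samples, named each contig by its best match in the human proteome, and counted the reads aligned to it. The deposited values are unnormalized counts, summed under human gene symbols, so contigs and near copies under 1 symbol cannot be told apart, and strand-specific counting is not stated. Of counts from 1 to 49, 67.4% were even, so small counts may not stand for separate fragments. No per-sample column was left out.

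Of 20220 symbols 14137 had a count in the 17 libraries and 11110 passed filterByExpr (minimum count 10, minimum total 15). The counts were scaled by TMM and fitted in edgeR 4.0.16 (R 4.3.3) with time point and state, and tested by quasi-likelihood with Benjamini-Hochberg adjustment. SE is the log2 fold change over the square root of F. DESeq2 1.42.0, limma 3.58.1 and other scalings, filters, samples and covariates were alternatives. Plots used matplotlib 3.10.9. No pair of the 17 libraries was a duplicate (chi-square per degree of freedom at least 16.2).

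Members and lists were chosen with earlier results of these data known. Named were the 12 genes per direction with the lowest p and the 5 with the largest fold (called, mean of at least 1 CPM, same sign at both times), the 3 of lowest p in each of 42 lists, and 4 genes past the test against ZT01 and ZT16. Some genes under this rule are withheld and not reported here. Other genes in the text, such as further members of a list, were chosen after their values were seen. Skeletal muscle markers and the runs without doubted libraries were added after seeing the data.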

Additional observations from a re-analysis of the deposited data

Results flagged for a closer look

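In each of the 4 groups (4 or 5 animals) the highest and lowest library of 141 named genes, of the haemoglobin share and of the counts outside haemoglobin genes was set against the rest by Dixon's ratio at the 95% level. It marked 28 of 572 group tests (4.9%), where chance marks about 1 in 20, and no library held more than 5 of them. All values are CPM.

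Among HT animals of ZT04, replicate 3 was high for TMPO (22.3, the next at 16.9) and RSPRY1 (2.28). Replicate 5 was high for CCR7 (22.6, the next at 12.5), FAM160A2 (1.78) and ATG2A (17.8), and low for CD68 (2.73) and ATG3 (2.79). Replicate 4 was high for MMP8 (2.30, the next at 0.437). Replicate 1 was low for CIRBP (18.5) and high for BCL2L13 (5.07). Among HT animals of ZT07, replicate 3 was high for MAVS (2.05), BANK1 (4.99) and TLR2 (1.13), and replicate 1 for NMNAT1 (0.135).

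Among NT animals of ZT04, replicate 1 was low for FKBP4 (3.23, the next at 6.12) and high for POLR2B (6.61) and PRKAA2 (3.78). Replicate 2 was high for HBG2 (1.69), replicate 3 for DYNC1I2 (7.26), and replicate 4 for MYBPC3 (2.799) and MMP8 (0.0906, the others at 0). Among NT animals of ZT07, replicate 4 was low for PTBP2 (3.003) and DOCK8 (25.9), replicate 2 high for RBM33 (18.1), replicate 1 high for RPS6 (5.84) and low for MCM7 (4.84), and replicate 3 low for NDUFB5 (1.71) and SIGLEC8 (7.87).

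The HT minus NT difference was compared between times of day by its own test. In 333 of 11471 genes (2.9%) the mean difference at ZT04 and ZT07 was unlike the mean difference at ZT01 and ZT16. On the log2 scale this contrast was 1.09 for TMPO, 1.54 for PTBP2, 1.24 for OGA and −0.96 for LCP1. At ZT16 all HT animals were labelled female and all NT animals male, so sex and state cannot be told apart in that part of the contrast. Against ZT01 alone 25 genes passed (0.218%).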

How the results depend on the processing

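The pooled count of 1854 genes was between 1483 and 2486 with DESeq2 (2263), limma voom (2486), robust dispersion, RLE scaling, without haemoglobin genes, without a filter, with a minimum mean of 1 CPM, with counts divided by 2, without the time term, with labelled sex, and in fits of 36 or 41 libraries. It was 214 with library totals and no scaling factor, 2979 at the cut-offs on unadjusted p and fold that the study applied, 1106 with a fold of at least 1.5, 1039 without HT ZT07 replicates 1 and 2, 984 without NT ZT04 replicate 2 too, 410 with labelled sex and without HT ZT07 replicates 1 and 2, and 7 in labelled males alone (3 HT, 5 NT). Leaving out single libraries gave 1325 to 1923. The median of all genes moved by at most 0.04 (log2) between scalings. Fits without libraries hold fewer animals, and otherwise the cause of these shifts was not tested.

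Within ZT04 the count of 343 became 744 with DESeq2, 44 with labelled sex and 47 with that time point's libraries alone, and 132 to 355 without single libraries. It was 183 without HT replicate 1, 158 without HT replicate 3, 215 without HT replicate 5, and 184, 132 and 160 without NT replicates 1, 3 and 4. Within ZT07 the count of 917 became 1381 with DESeq2 and 347 to 1060 without single libraries. It was 347 and 510 without HT replicates 2 and 4, and 564, 557 and 464 without NT replicates 2, 3 and 4. The difference between the time points gave 3 genes with DESeq2, and the difference from ZT01 alone 25. Without HT ZT01 replicate 1, added after seeing the data, the difference from ZT01 and ZT16 gave 410 genes. The haemoglobin share difference ran from −0.405 to 0.746 percentage points and the difference in counts outside haemoglobin genes from −785046 to 67156 without single libraries.

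Of 114 named genes past the test, 91 passed without HT ZT07 replicates 1 and 2, 87 without NT ZT04 replicate 2 too, 102 with labelled sex and 5 in every setting. No named gene past the test changed sign. Of those that did not pass, TNNT2 had a log2 fold change of −0.0015 with labelled sex and −0.31 in labelled males, RFXAP −0.12 in labelled males, HBG2 0.023 and MS4A2 0.066 with labelled sex and without HT ZT07 replicates 1 and 2, and HBB 0.25, HBG2 0.26 and MS4A2 0.20 without those and NT ZT04 replicate 2. HBB ran from −0.65 to 0.0094 without single libraries.

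Equal replicate numbers were not taken as pairs. The correlation of same-numbered HT and NT animals ran from −0.05 to 0.19 at ZT04 and from −0.02 to 0.15 at ZT07. It was the highest for 3 of 4 and 2 of 4. These values do not settle whether same-numbered animals shared a factor, which was not tested. With the replicate block 1774 genes passed, 1540 of them among the 1854. Depth outside haemoglobin limits genes below 1 CPM.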

Other observations

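Several genes outside the lists, chosen after their values were seen, also separated HT from NT. RAPSN, which clusters acetylcholine receptors at the muscle endplate, ran from 0.299 to 1.48 CPM in HT and from 0 to 0.0692 CPM in NT (log2 4.41 ± 0.45, edgeR adjusted p = 3.83e-06). KCNH3, a potassium channel known from brain, had medians of 0.798 and 0.154 CPM. ASB14, a substrate receptor of ubiquitin ligases, had 1.88 and 0.581 CPM, and PYGM, the glycogen phosphorylase of muscle, had 2.69 and 1.13 CPM. These 4 genes rose without overlap of the libraries, where every HT library lay above every NT library in 1.65% of all genes tested. RAPSN and PYGM also rose without HT ZT07 replicates 1 and 2 (adjusted p = 5.83e-05 and 0.000709), the first of which had the highest sum of skeletal muscle markers. The part of muscle RNA in these levels was not tested. KCTD21, an adaptor of cullin ubiquitin ligases, ran from 0 to 0.131 CPM in HT and from 0.334 to 0.917 CPM in NT (log2 −3.97 ± 0.55, adjusted p = 9.17e-05).

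Among more abundant genes, TUT4, which adds uridines to RNA ends, had medians of 15.2 CPM in HT and 6.56 CPM in NT, and TNRC6A, the partner of Argonaute in silencing by miRNAs, had 16.03 and 8.92 CPM. HMGB2, a chromatin protein, had 35.7 and 17.7 CPM, and XPO1, the main exporter of proteins from the nucleus, had 10.8 and 6.28 CPM. The vesicle fusion genes VAMP2 (16.4 and 9.17 CPM) and VAMP3 (2.58 and 1.13 CPM) rose as well. PPP1R10, a nuclear subunit of protein phosphatase 1, fell, with medians of 2.04 CPM in HT and 4.91 CPM in NT. Of these 7 genes none overlapped between the 9 HT and 8 NT libraries, as in 2.42% of all genes tested.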
